A study of Homo sapiens with 15 samples.

Results

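The comparison described here sets THP-1 cells exposed to CDP870, pooling the 6 h and 24 h samples, against untreated THP-1 cells. Its members were chosen by sample title: 3 arrays of CDP870 at 6 h, 3 of CDP870 at 24 h and 3 untreated arrays at 0 h, which makes 9 of the 15 arrays of the series. All 54613 non-control probe sets of the array were considered. A probe set is a group of short oligonucleotides that report 1 transcript, and its value is a log2 level, so a difference of 1 is a 2-fold difference. No probe set differed between CDP870 and untreated cells past the threshold, and the text therefore gives the small differences seen at both times together with the limits that the spread between arrays set on larger ones.

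THP-1 is a human cell line from an acute monocytic leukaemia that is used as a model of monocytes. Tumour necrosis factor (TNF) is a cytokine made mainly by monocytes and macrophages as a membrane protein, which the protease ADAM17 sheds into solution. Its receptors signal through adaptor proteins to NF-kB, whose targets include inflammatory cytokines and the pathway's own inhibitors. CDP870, also called certolizumab pegol, is a Fab' fragment joined to polyethylene glycol that binds TNF and has no Fc part, whereas infliximab is a whole chimeric IgG1 antibody against TNF. The remaining 6 arrays of the series hold cells exposed to infliximab for 6 or 24 h, with 3 arrays at each time. Every group is the same cell line with no genetic change named in the labels, and the only agents named are infliximab and CDP870. The sources used here do not give the dose or the culture conditions. Untreated cells were sampled at 0 h only, so the effect of CDP870 and that of time in culture cannot be told apart. Arrays of 1 group are described as biological replicates with no mention of separate cultures, and the p-values then reflect only the spread among these samples, which may be technical.

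The arrays were alike in their general levels. Median log2 values ranged from 2.93 to 3.07, and 17 of the 19 monocytic marker genes on the array, among them LYZ, ELANE and CSF1R, were above the array median on all 9 arrays. So were 5 of 7 B cell, 4 of 11 T cell, 4 of 8 NK cell and 3 of 5 erythroid genes. The fibroblast and endothelial list had 3 of 12 and the epithelial list 10 of 13. Being above the median thus did not by itself mark a cell type. CD14, a classical monocyte surface marker, was above the median on only 2 of the 15 arrays and was not tested. Control replicate 3 stood apart from the other untreated arrays: its differences from them had a standard deviation of 0.31 and 0.33, against 0.19 for the other control pair and 0.18 to 0.28 for pairs of CDP870 arrays of the same time. Spike-in RNA added at hybridisation averaged 7.55 ± 0.16 (SD, n = 6) with CDP870 and 7.38 ± 0.13 (SD, n = 3) in the controls, a difference of 0.17 (exact two-sided permutation test, p = 0.1667, adjusted p = 0.6668 over 4 array values). The other 3 array values, the median and the 3′ to 5′ differences of ACTB and GAPDH, differed by -0.02, 0.04 and 0.01.

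Of 28897 probe sets tested, from 13607 named genes, none was called at a limma adjusted p under 0.05 when both CDP870 times were pooled, so the background share of calls was 0%. The smallest adjusted p was 0.458. At an unadjusted p under 0.05 there were 1357 probe sets (4.7% of those tested), of which 353 were higher (1.22%) and 1004 lower (3.47%) with CDP870. The excess of lower values depended on 1 array and on scaling: without control replicate 3 the counts were 592 higher and 675 lower, and with each array centred on its own median they were 464 and 801. Nor was any probe set called at 6 h alone (1352 at an unadjusted p under 0.05, or 4.68%, with 1.6% higher and 3.08% lower) or at 24 h alone (1359, or 4.7%, with 1.15% higher and 3.56% lower). Those 3 comparisons share the same control arrays.

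The size of the differences was small. Pooled differences had a median of -0.02, and 90% of probe sets lay between -0.22 and 0.18. Only 38 of them (0.132%) exceeded 0.5 in size, 10 higher and 28 lower with CDP870, and 1 exceeded 1. At the single times 132 probe sets exceeded 0.5 at 6 h and 78 at 24 h. The values of the 6 CDP870 arrays lay wholly above those of the 3 controls for 191 probe sets (0.661%) and wholly below for 559 (1.93%), or 2.6% in all.

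The 95% interval of each pooled difference gives a bound on the difference in array value, averaged over 6 h and 24 h. This interval lay within 1 on either side of 0 for 28769 probe sets (99.6%), so that for these a 2-fold change of that average in either direction lay outside it. A change at 1 time alone enters the average only in part: 5 probe sets exceeded 1 in size at 6 h, against 1 for the pooled difference. It lay within 0.5, or 1.41-fold, for 25525 (88.3%) and within 0.25, or 1.19-fold, for 5438 (18.8%). The median half-width was 0.24, narrower than the 0.28 obtained at 1 time alone. The bound of 0.5 was met more often at high levels, since 93.7% of the 9632 probe sets with the highest levels had an interval within 0.5, against 84.5% of the 9633 with the lowest. At the bound of 1 the shares were 99.6% and 99.8%. The probe sets with the lowest levels had means of 2.27 to 3.97, near the array medians. How far such low values follow a change in the transcript was not tested, so their bounds hold for array values only. Each interval is taken on its own, with no adjustment for the number of probe sets.

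**Figure D1:**
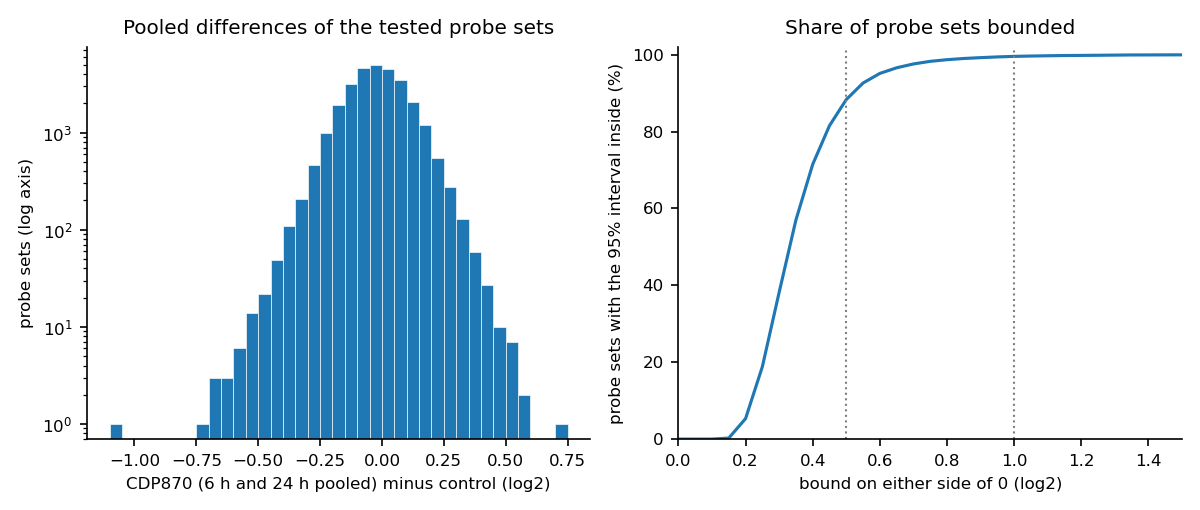
Left, number of tested probe sets (log axis) at each pooled difference between CDP870 and untreated cells in log2 units; right, percentage of tested probe sets whose 95% interval lies inside a bound on either side of 0, with dotted lines at 0.5 and 1. The differences centre on -0.02 and the curve reaches 88.3% at 0.5 and 99.6% at 1.

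For 128 probe sets, 111 of them with 1 gene symbol, a 2-fold change could not be bounded. In 114 of these the array farthest from its group mean was an infliximab array, most often replicate 5 of the 24 h group (90 probe sets, or 70.3%), which enters only through the shared estimate of spread. Over all tested probe sets replicates 5, 6 and 7 of that group were the farthest in 15%, 10.7% and 12.6%. The infliximab arrays at 6 h were so in 3.14% to 3.56% each. Control replicate 3, which enters the difference itself, was the farthest most often, in 18.8%. Fitting the 9 arrays of this comparison alone put 28874 intervals (99.9%) within 1. SPI1, which encodes the myeloid transcription factor PU.1, is an example: it measured 6.27, 7.57 and 6.51 in the controls, 7.42, 7.04 and 7.38 at 6 h and 6.72, 6.44 and 7.21 at 24 h. Control replicate 3 was the highest of the 9, the groups overlapped, and the difference was 0.25 with an interval from -0.66 to 1.16. The 24 h infliximab arrays, which widen that interval, measured 8.86 on replicate 5 and 6.59 and 6.54 on the others. SOD2, the mitochondrial superoxide dismutase, measured 5.29 to 5.70 in the controls and 4.74 to 5.68 with CDP870, with means of 5.57 at 6 h and 5.10 at 24 h. Its interval of -1.09 to 0.91 around -0.09 went with a value of 2.97 on replicate 5 of infliximab at 24 h, against 5.61 and 6.08 on the others. PKM, a glycolytic enzyme, could not be bounded either (0.42, interval -0.46 to 1.31).

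TNF, the target of the drug, passed the filter on low values. It measured 4.40, 4.20 and 3.77 in the control arrays, 3.83, 3.5 and 4.08 at 6 h and 3.85, 3.72 and 4.02 at 24 h. The values overlapped, and the difference was -0.29 (95% interval -0.63 to 0.05, limma adjusted p = 0.998), so that a 2-fold decrease lay outside the interval. ADAM17, the sheddase, differed by 0.08 (interval -0.15 to 0.31). The receptor gene TNFRSF1A differed by 0.12 (interval -0.18 to 0.43) and TNFRSF1B by 0.08 (interval -0.14 to 0.31), and both receptor transcripts were thus bounded within 0.5. Of the 13 genes listed for TNF, its sheddase and receptors, none was called. Their median difference was -0.08, against -0.02 over all probe sets, and 12 had an interval within 0.5. The smallest p values in that list belonged to TNFRSF10A, a receptor for the death ligand TRAIL (-0.28, interval -0.50 to -0.05), and to LTB, which encodes lymphotoxin beta (-0.20, interval -0.39 to -0.01).

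Downstream of the receptors the values were also close to those of untreated cells. All 16 tested adaptor and core NF-kB genes had intervals within 1 and 15 within 0.5, with a median of 0.00. NFKBIA, the inhibitor that NF-kB itself induces, measured 6.78, 7.02 and 6.70 in the controls, 6.87, 6.76 and 6.70 at 6 h and 6.79, 6.49 and 6.82 at 24 h. Its values overlapped and its difference was -0.10 (interval -0.30 to 0.11). TNFAIP3, which encodes the ubiquitin-editing inhibitor A20, differed by 0.06 (interval -0.12 to 0.23) on the probe set with the higher mean and by -0.26 (interval -0.54 to 0.02) on its other one, which was -0.41 at 24 h. Among the 14 tested NF-kB feedback and target genes none was called, 11 had an interval within 0.5 and the median was -0.09. The 2 furthest from 0 in that list were IER3, an immediate early survival gene (-0.30, interval -0.57 to -0.04), and IL1B, the interleukin-1 beta gene (0.26, interval -0.03 to 0.55, with -0.03 on its other probe set). In IER3 control replicate 3 was the highest of the 9 arrays, at 5.93, against 5.48 and 5.39 in the other controls and 5.06 to 5.52 with CDP870. CXCL8, a neutrophil chemokine, differed by -0.12 (interval -0.38 to 0.15). Of 18 cytokine and chemokine genes 12 were expressed highly enough to test, none was called and 10 had an interval within 0.5. IL6, IL10, CCL4, CXCL2 and CXCL10 did not pass the filter on low values, so the arrays set no bound on them.

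Receptors for the Fc part of IgG, which CDP870 lacks, were measured as well. Of 13 tested genes of this group none was called, 12 had intervals within 0.5, and the median difference was 0.00. FCGR1A did not pass the filter on low values, so the arrays set no bound on it. FCGR2A, an activating low-affinity receptor, measured 5.67, 5.60 and 5.63 in the controls, 5.54, 5.69 and 5.69 at 6 h and 5.84, 5.69 and 5.53 at 24 h. The CDP870 values lay on both sides of the controls (difference 0.03, interval -0.18 to 0.24). FCGRT, the neonatal receptor that recycles IgG, differed by -0.03 (interval -0.20 to 0.15). SYK, the kinase that activating Fc receptors recruit, differed by -0.10 (interval -0.28 to 0.07).

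Differences between the whole antibody and CDP870 in the same cells were many and larger. Between infliximab and CDP870, each with both times pooled, 4613 of 28897 probe sets were called by limma (16%), 2720 higher (9.41%) and 1893 lower (6.55%) with infliximab, and 168 of the calls exceeded 1. This comparison uses the same 6 CDP870 arrays as the one with untreated cells, so the 2 sets of values are given side by side. Cells activate the integrated stress response when amino acids are short or protein folding is disturbed, and its transcription factor ATF4 raises genes of amino acid synthesis and transport. All 29 genes listed for this response were tested. With infliximab 27 were higher than with CDP870 and 1 was lower, with a median difference of 1.48, whereas between CDP870 and untreated cells none was called, the median was -0.03, all 29 intervals lay within 1 and 24 within 0.5.

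ASNS, asparagine synthetase, measured 5.87, 5.65 and 5.59 in the controls, 5.54, 5.50 and 5.63 at 6 h of CDP870 and 5.65, 5.61 and 5.36 at 24 h, but 8.82 to 9.04 on the 6 infliximab arrays. CDP870 overlapped the untreated arrays (interval -0.35 to 0.04) and infliximab lay above both, by 3.38 over CDP870 (limma adjusted p = 1.3e-12). The mTORC1 inhibitor gene DDIT4, which many stresses induce, showed the same order, at 6.26, 6.46 and 6.45 in the controls, 6.13 to 6.38 with CDP870 and 8.87 to 9.15 with infliximab. Its interval for CDP870 ran from -0.34 to 0.03, and infliximab exceeded CDP870 by 2.83 (adjusted p = 3.2e-12). VEGFA, the vascular endothelial growth factor, was 2.76 higher with infliximab than with CDP870 on 1 probe set and 1.84, 1.72 and 0.98 higher on the others, while the interval of the first for CDP870 against untreated cells ran from -0.45 to 0.16. CTH, which makes cysteine from cystathionine, was 2.99 higher with infliximab and had an interval from -0.55 to 0.26 for CDP870. RPS6KA2, a ribosomal S6 kinase, was read by probe sets that disagree in size: they were 3.54, 0.97 and 0.21 higher with infliximab than with CDP870, the last not called (adjusted p = 0.155), and their CDP870 differences from untreated cells were -0.09, 0.12 and 0.01.

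3 stress response genes reached an unadjusted p under 0.05 with CDP870, in both directions: 1 of 29 was higher and 2 were lower, beside 1.22% and 3.47% of all probe sets. SLC3A2, the heavy chain of amino acid transporters, measured 7.01, 7.07 and 6.96 in the controls, 6.76, 6.78 and 6.72 at 6 h and 6.96, 6.95 and 6.68 at 24 h (-0.20, interval -0.37 to -0.04). STC2, a secreted glycoprotein, differed by -0.27 on the probe set with the highest mean (interval -0.50 to -0.04) and by -0.59 on another (interval -1.01 to -0.17). That second probe set was dim, with controls at 2.62 to 2.79, below their array medians. On it CDP870 24 h replicate 13 was above every control, at 2.95, and the other CDP870 arrays were at 1.87 to 2.07. ATF3, a stress-induced transcription factor, differed by 0.33 (interval 0.04 to 0.61). None passed the adjustment (limma adjusted p = 0.996 for SLC3A2, 0.974 for the second STC2 probe set and 0.998 for the others).

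**Figure D2:**
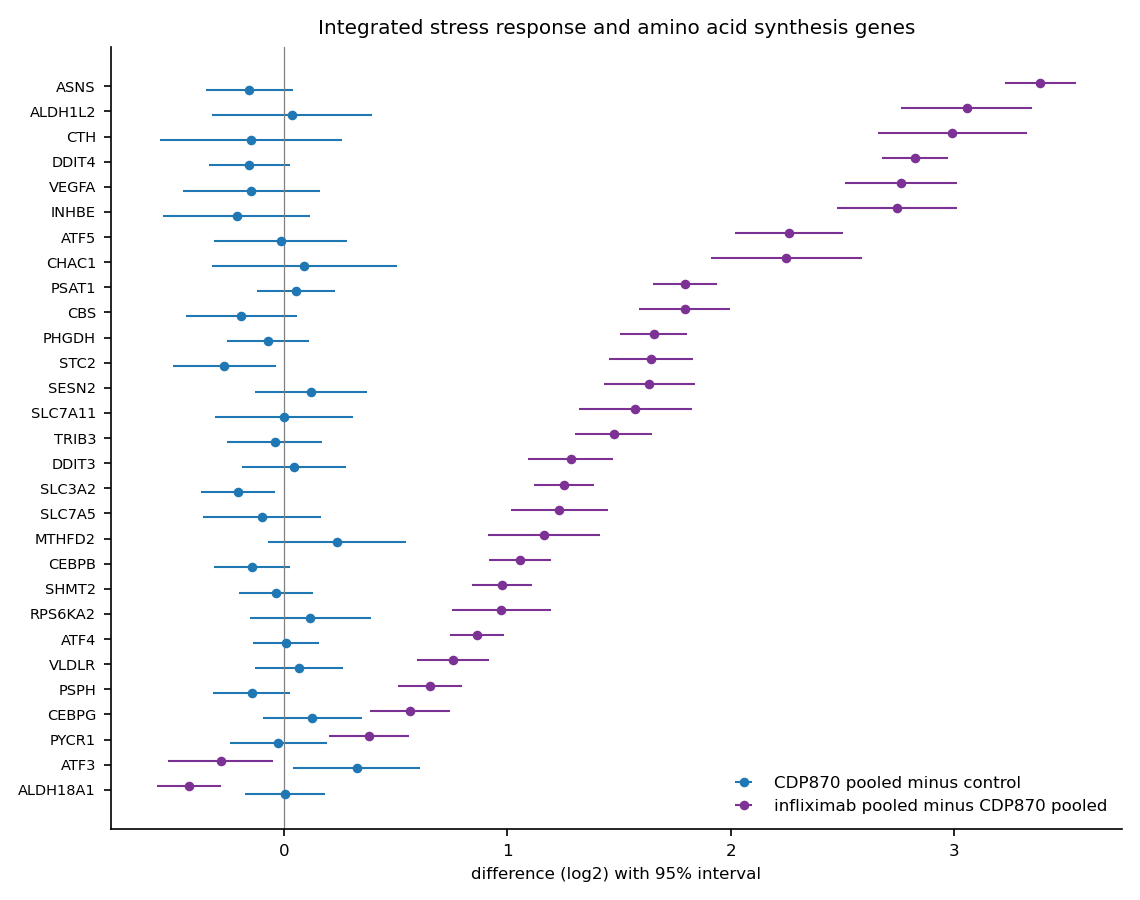
Difference in log2 units (x axis) with its 95% interval for the 29 genes of the integrated stress response and amino acid synthesis, as CDP870 minus untreated (blue) and infliximab minus CDP870 (purple), both times pooled. The blue points lie between -0.27 and 0.33, and the purple points reach 3.38 for ASNS.

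On the other side, genes lower with infliximab than with CDP870 were also near the untreated level with CDP870. EIF5, a translation initiation factor, was 1.11 lower with infliximab, and CDP870 differed from untreated cells by 0.01 (interval -0.21 to 0.24). SDF2L1 and MANF, both products of the endoplasmic reticulum, were 0.93 and 0.89 lower with infliximab and differed by 0.00 and 0.08 with CDP870. TFRC, the transferrin receptor, differed by 0.10 with CDP870 (interval -0.11 to 0.31), and POP1, FKBP4 and GEMIN5 by 0.02, 0.04 and 0.00. Each of these intervals for CDP870 lay within 0.5. In SPATA31C2 (1.08 lower with infliximab) the CDP870 interval ran from -0.32 to 0.30, and in SLC2A4RG (0.94 lower) from -0.33 to 0.65. HSPH1, a heat shock protein, was 0.88 lower with infliximab on the probe set with the largest difference, for which control replicate 3 lay at 7.37, the other controls at 8.23 and 8.34 and the CDP870 arrays at 8.12 to 8.37.

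The named genes with the smallest p for a lower value began with DGCR11, a non-coding RNA gene. DGCR11 measured 3.44, 3.26 and 3.41 in the controls, 2.96, 2.92 and 3.05 at 6 h and 2.90, 2.91 and 2.88 at 24 h. All 6 CDP870 values lay below all 3 controls, and the difference of -0.43 (interval -0.59 to -0.28) was nearly the same at both times, -0.39 and -0.47. The CDP870 values of DGCR11 lay around the medians of the CDP870 arrays, 2.93 to 3.05. How far such low values follow the transcript was not tested. OXCT2, a ketone body enzyme known mainly from testis, measured 3.67, 4.02 and 3.90 in the controls, 3.19, 3.36 and 3.45 at 6 h and 3.41, 3.26 and 3.39 at 24 h, again without overlap (-0.52, interval -0.71 to -0.33). Its other tested probe set differed by -0.26. ANKRD13D, an ankyrin repeat protein that binds ubiquitin, measured 5.13, 5.29 and 4.98 in the controls, 4.53, 4.54 and 4.38 at 6 h and 4.77, 4.62 and 4.73 at 24 h. These arrays too were separate, with a difference of -0.54 (interval -0.74 to -0.34), yet 2 other probe sets of ANKRD13D differed by only -0.07 and -0.08. The limma adjusted p was 0.458 for each of these 3 genes, the smallest in the comparison. On the first probe set of each, infliximab means at 6 h and 24 h were 2.86 and 2.86 for DGCR11. They were 3.35 and 3.42 for OXCT2 and 4.71 and 4.74 for ANKRD13D. None was called between the agents (limma adjusted p = 0.4061, 0.7563 and 0.2858), so these values did not set CDP870 apart from infliximab.

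Several further genes with low p also rested on 1 probe set among several. RBM39, a splicing factor, differed by -0.73 (interval -1.04 to -0.43) on 1 probe set and by 0.09 and 0.04 on the others. TRIM4, a ubiquitin ligase, differed by -0.41 on 1 and by 0.10 and 0.07 on the others. CADM1, a cell adhesion molecule, differed by -0.40, 0.19 and -0.09. NMU, which encodes the peptide neuromedin U, had a single tested probe set, at 3.44, 3.63 and 3.43 in the controls, 2.68, 3.28 and 3.05 at 6 h and 2.93, 2.80 and 2.70 at 24 h (-0.59, interval -0.87 to -0.32, adjusted p = 0.914). Its CDP870 values were all below the controls and varied more among themselves than the controls did. On the first probe set given for each, infliximab was called higher than CDP870. The differences were 0.75 for RBM39, 0.60 for TRIM4, 0.85 for CADM1 and 0.505 for NMU. The CDP870 values of RBM39 (2.47 to 3.28) and NMU (2.68 to 3.28) were low, around the medians of the CDP870 arrays.

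Epithelial genes had the lowest median difference of the 32 lists, -0.24 over 11 tested genes (-0.13 at 6 h and -0.34 at 24 h), and 5 of them had an unadjusted p under 0.05, all lower with CDP870, beside 3.47% of all probe sets. EPCAM, an epithelial cell adhesion molecule, measured 5.99, 6.04 and 6.06 in the controls, 5.67, 5.61 and 5.68 at 6 h and 5.77, 5.65 and 5.56 at 24 h. The groups did not overlap, and the difference was -0.37 (interval -0.55 to -0.20), or 0.772 times the untreated level. KRT19, a keratin of simple epithelia, measured 5.40, 5.68 and 5.45 in the controls, 4.78, 4.87 and 5.19 at 6 h and 5.13, 5.12 and 4.89 at 24 h (-0.51, interval -0.76 to -0.27). KRT18, another keratin of simple epithelia, measured 8.15, 8.43 and 8.14, then 7.68, 7.82 and 7.79, then 7.74, 7.70 and 8.02 (-0.45, interval -0.67 to -0.22). For KRT19 and KRT18, as for EPCAM, every CDP870 value lay below every control value, with similar differences at both times (-0.56 and -0.46 for KRT19, -0.48 and -0.42 for KRT18). Control replicate 3 was the highest control for KRT19 and KRT18, and without it the pooled difference of KRT19 was -0.43. KRT5 and KRT8 completed the 5, at -0.38 (interval -0.59 to -0.16) and -0.36, and they too did not overlap. None of the 5 was called (limma adjusted p from 0.914 to 0.974). The other 6 ranged from -0.24 for the desmosomal gene DSP to 0.08 for KRT7 and ELF3, and some of them differed between the times, such as the claudin gene CLDN7 at 0.12 and -0.35.

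The same epithelial genes stood higher with infliximab than with CDP870. EPCAM was 1.07 higher (limma adjusted p = 9.3e-08), KRT19 1.16, KRT18 1.05 and KRT5 0.96, so that untreated cells lay between the agents. Of the 13 epithelial genes on the array 10 were above the array median on all 9 arrays. The summed log2 level of all 13 was 59.4 to 61.97 in the controls and 56.5 to 59.37 with CDP870, so the ranges nearly touched. This sum includes EPCAM, KRT19, KRT18, KRT5 and KRT8, so it is not separate evidence, and it was not tested. The summed level of the monocytic markers overlapped, at 139.21 to 142.94 in the controls and 139.71 to 141.41 with CDP870, as did those of the T cell, B cell, NK cell, erythroid and fibroblast or endothelial lists. Whether epithelial transcripts came from all cells or from few was not tested, and in bulk RNA fewer cells of a kind and less RNA per cell cannot be told apart.

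**Figure D3:**
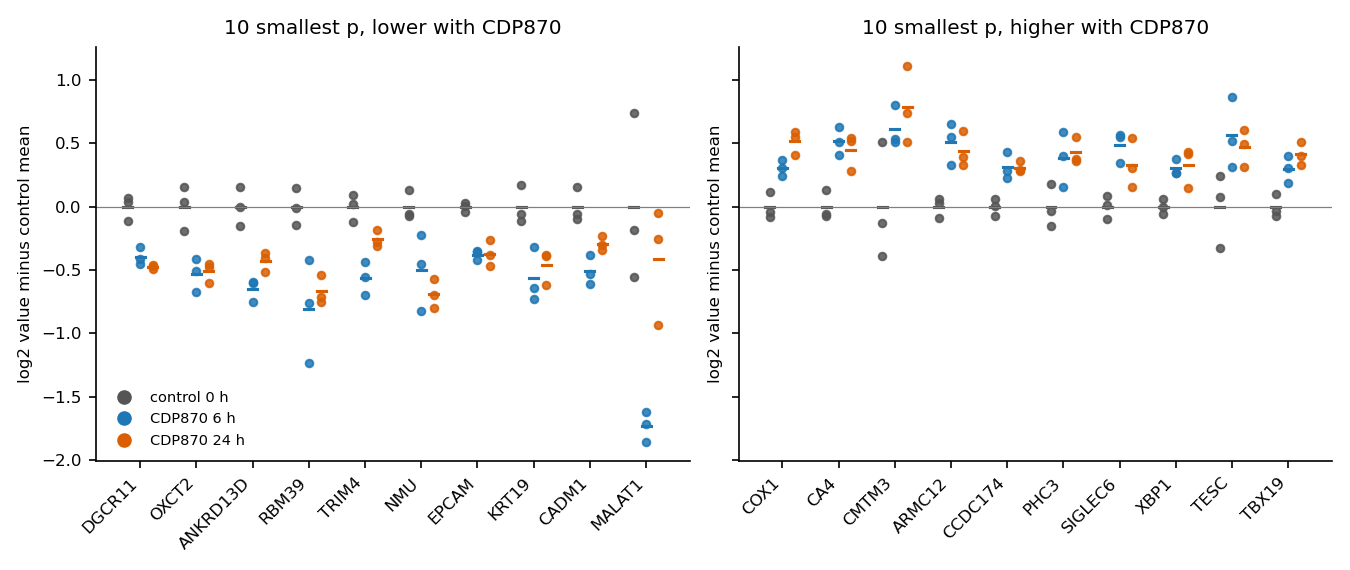
Log2 value of each array minus the mean of the untreated arrays (y axis) for the 10 named genes with the smallest p for a lower value (left) and for a higher value (right); points are arrays, short bars are group means. The CDP870 points at 6 h and 24 h lie on the same side of 0 in all 20 genes, by the choice of genes, and MALAT1 separates the times most.

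On the higher side the smallest p belonged to COX1, the subunit of cytochrome c oxidase encoded by the mitochondrial genome. COX1 measured 10.24, 10.20 and 10.40 in the controls, 10.52, 10.65 and 10.59 at 6 h and 10.83, 10.87 and 10.69 at 24 h. Every CDP870 array was above every control, and the difference was 0.41 (interval 0.23 to 0.60, limma adjusted p = 0.914), or 1.33-fold. It was 0.31 at 6 h and 0.52 at 24 h. The other 6 tested transcripts of the mitochondrial genome differed by 0.05 to 0.16, with COX3 at 0.16, ND2 and ATP6 at 0.12 and ND6 and COX2 at 0.05. The list's median was 0.12, and COX1 was the only member with an unadjusted p under 0.05. Respiratory chain subunits encoded in the nucleus had a median of -0.04 over 23 genes, all with intervals within 0.5. With infliximab COX1 had means of 10.74 at 6 h and 10.75 at 24 h. It was not called between the agents (0.055 higher with infliximab, limma adjusted p = 0.6536).

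XBP1, a transcription factor of the unfolded protein response, measured 7.08, 7.02 and 7.14 in the controls, 7.46, 7.35 and 7.35 at 6 h and 7.51, 7.5 and 7.23 at 24 h. Here too the groups did not overlap, with a difference of 0.32 (interval 0.15 to 0.49, limma adjusted p = 0.914), although its other probe set differed by 0.06. On the first of these, infliximab was higher still, by 0.45 over CDP870 (limma adjusted p = 0.0003175). On the other it differed from CDP870 by -0.01. DNAJC3, a co-chaperone of the endoplasmic reticulum, was separate as well, at 8.03, 7.96 and 8.07 in the controls and 8.20 to 8.35 with CDP870 (0.28, interval 0.11 to 0.44). HERPUD1, which takes part in the degradation of misfolded proteins, differed by 0.24 (interval 0.04 to 0.44). HSPA5, the chaperone BiP, overlapped the controls and differed by 0.20 (interval 0.01 to 0.38), with 0.08 at 6 h and 0.31 at 24 h. These 4 were the members of the 21 tested endoplasmic reticulum genes with an unadjusted p under 0.05, all higher, beside 1.22% of all probe sets. None was called, the list's median was 0.05 and all 21 intervals lay within 0.5. Among 12 heat shock chaperones the median was 0.04 and DNAJA1 alone had an unadjusted p under 0.05 (0.25, interval 0.03 to 0.47).

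The remaining genes with the smallest p for a higher value were mostly of low level. CA4, a membrane-bound carbonic anhydrase, measured 3.41, 3.61 and 3.42 in the controls, 3.99, 3.89 and 4.11 at 6 h and 3.76, 4.02 and 4.0 at 24 h, without overlap (0.48, interval 0.26 to 0.71). CMTM3 had the highest difference of all probe sets, 0.70, but its controls spread from 1.93 to 2.83 and touched the CDP870 values of 2.83 to 3.43, and 2 other probe sets of CMTM3 differed by 0.04. The values without control replicate 2 and without control replicate 4 were 0.96 and 0.51. ARMC12 (0.47), SIGLEC6, a sialic acid-binding lectin (0.41), and TBX19, a T-box transcription factor (0.36), had 1 tested probe set each. CCDC174 differed by 0.31 and 0.28 on a pair of probe sets and by -0.10 on its remaining one. TESC, a calcium-binding protein (0.52), and PHC3, a Polycomb protein (0.41), had other probe sets that differed by -0.18 for TESC and by -0.22 to 0.04 for PHC3. The limma adjusted p was 0.914 for each of these 8 genes. On the probe sets of smallest p, CCDC174 was called higher with infliximab than with CDP870 (0.21, limma adjusted p = 0.034). The other genes of this paragraph were not called between the agents on theirs.

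Among the named genes MALAT1 had the widest difference between the times of CDP870. MALAT1 is an abundant long non-coding RNA kept in nuclear speckles. On the probe set with the smallest p it measured 5.67, 6.60 and 5.30 in the controls, 4.24, 4.14 and 4.0 at 6 h and 5.60, 5.81 and 4.92 at 24 h. The 6 h arrays were below all others, whereas the 24 h arrays overlapped the controls. The pooled difference of -1.07 (interval -1.59 to -0.55, limma adjusted p = 0.914) was made of -1.73 at 6 h (interval -2.33 to -1.13, adjusted p = 0.173) and -0.41 at 24 h (interval -1.01 to 0.19). Without control replicate 3, the highest of the controls, the pooled difference was -0.70. The 24 h arrays exceeded the 6 h arrays by 1.32 (interval 0.72 to 1.92), which did not pass (adjusted p = 0.536). MALAT1 was read by 8 tested probe sets, of which 7 had a negative difference at 6 h, from -0.32 to -1.73, and the dimmest had 0.14. At 24 h all 8 lay between -0.41 and 0.00.

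**Figure D4:**
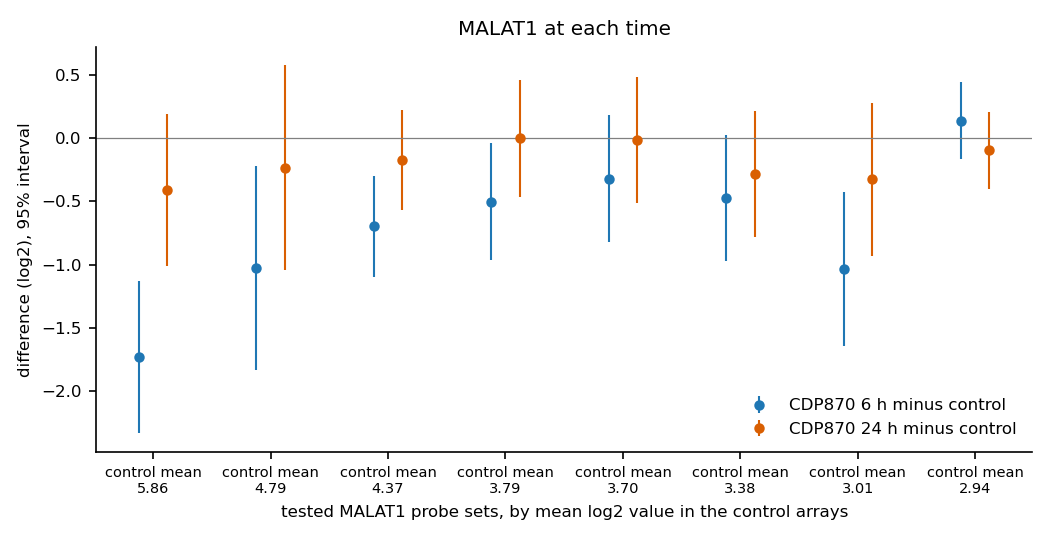
Difference from untreated cells in log2 units (y axis) with its 95% interval at 6 h (blue) and 24 h (orange) of CDP870 for the 8 tested MALAT1 probe sets, ordered by their mean log2 value in the 3 control arrays. The 6 h difference is below 0 in 7 of the 8, and every 24 h interval includes 0.

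Between 24 h and 6 h of CDP870 the difference itself uses no control array, although the controls enter the shared estimate of spread. No probe set was called (0%), with 1437 (4.97%) at an unadjusted p under 0.05 (1.74% higher and 3.23% lower) and a smallest limma adjusted p of 0.185. With arrays weighted by their agreement 280 were called (0.969%), 123 higher and 157 lower at 24 h, among them MALAT1, UBN1, THRAP3 and EML3. The smallest p values for a higher level at 24 h were those of UBN1, a subunit of a histone chaperone, THRAP3, a splicing-related protein, and RPL37, a ribosomal protein. UBN1 measured 6.71, 6.85 and 6.79 in the controls, 6.19, 6.22 and 5.86 at 6 h and 6.77, 6.70 and 6.96 at 24 h. The 6 h arrays were low and the 24 h arrays were at the untreated level, with 0.72 between the times (interval 0.47 to 0.97, adjusted p = 0.185). THRAP3 followed the same order, at 6.15, 6.31 and 6.07, then 5.55, 5.61 and 5.46, then 6.12, 6.16 and 6.14 (0.60 between the times, interval 0.39 to 0.81, adjusted p = 0.185). RPL37 measured 3.84, 3.76 and 3.68, then 3.15, 3.33 and 3.34, then 3.74, 3.72 and 3.93 (0.52, adjusted p = 0.255). These RPL37 values were low, within the range of the probe sets with the lowest levels (2.27 to 3.97). In UBN1 the other probe set differed by -0.16 between the times, and in THRAP3 the others differed by 0.19 and -0.10, so single probe sets carried these values. On the lower side at 24 h were EML3, a microtubule-associated protein (-0.47), CEP70, a centrosomal protein (-0.59), and CDC42SE1, a small effector of CDC42 (-0.36), with adjusted p values of 0.482, 0.535 and 0.536.

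Lists of other cell programmes differed in how tightly they were bounded. All 31 DNA replication genes and all 30 genes of mitosis were tested, and all of their intervals lay within 0.5, with medians of 0.01 and 0.03. CCNE1, which encodes cyclin E1, differed by -0.17 (interval -0.37 to 0.03) and UBE2C, a ubiquitin-conjugating enzyme of mitotic exit, by -0.17 (interval -0.39 to 0.04), the lowest of the 2 lists. Intervals lay within 0.5 for all 12 genes of MHC class I presentation, all 16 of adhesion and migration and all 10 of iron handling. For the type I interferon response 14 of 16 intervals did so, with a median of -0.09, and for cholesterol and fatty acid synthesis 15 of 18, with a median of 0.02 and intervals that ran from -0.74 to 0.95. ACLY, which makes acetyl-CoA from citrate, was the only gene of these 7 lists with an unadjusted p under 0.05 (0.21, interval 0.03 to 0.39). The bounds were wider elsewhere: 11 of 13 genes of MHC class II presentation, 14 of 16 p53 targets and 23 of 27 genes of glycolysis and hypoxia had an interval within 0.5, and the upper limits reached 0.96 for CD74, the class II invariant chain, and 1.31 for PKM.

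Further members with an interval that excluded 0 were mostly lower with CDP870. IER2, an immediate early gene, measured 7.83, 8.08 and 7.77 in the controls and 7.53 to 7.71 with CDP870, without overlap (-0.28, interval -0.45 to -0.11). CD9, a tetraspanin of the macrophage surface, measured 6.55, 6.84 and 6.52 in the controls and 6.12 to 6.45 with CDP870, also without overlap (-0.32, interval -0.54 to -0.10), and LGALS3, the galectin-3 gene of the same list, differed by -0.23 (interval -0.41 to -0.04). RRS1 and RRP9, both of ribosome assembly, differed by -0.23 and -0.19, although their list of 18 genes had a median of 0.00. SLC2A3, a glucose transporter, differed by -0.38 (interval -0.68 to -0.08), and GADD45B, a stress-induced signalling protein, by -0.21 (interval -0.37 to -0.05). The 8 tested metallothionein and zinc transport genes had a median of -0.16, the second lowest of the 32 lists, with MT1G at -0.18 and MT1X at -0.17 and all 8 intervals within 0.5. Control replicate 3 was the highest array for IER2, CD9, MT1G and MT1X. Limma adjusted p values of the genes in this paragraph ran from 0.974 to 0.998.

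**Figure D5:**
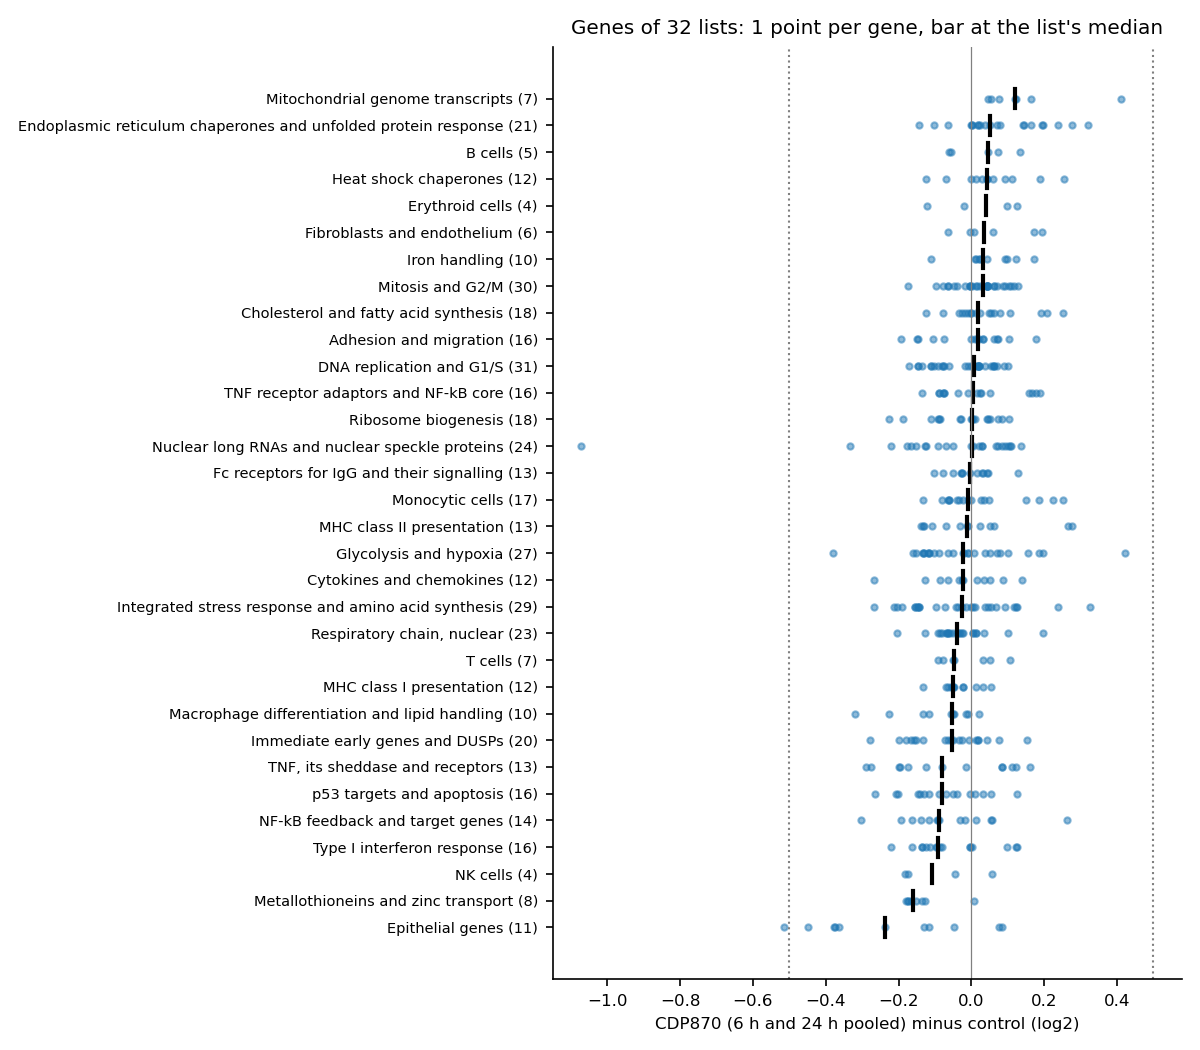
Pooled difference between CDP870 and untreated cells in log2 units (x axis) for the tested genes of 32 lists, 1 point per gene, with a bar at each list's median and the number of tested genes in brackets; dotted lines mark 0.5 on either side of 0. All list medians lie between -0.24 (epithelial genes) and 0.12 (mitochondrial genome), and the points outside the lines are MALAT1 and KRT19.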

How the data were processed

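RNA of THP-1 cells was measured on Affymetrix arrays. The deposited values are summaries of probe sets on the log2 scale. GCRMA and GCOS 1.3.0 appear in the submitters' processing notes, and the sources used here give no further steps. A level on this scale has no unit of amount, and only differences between groups are read. Gene symbols came from the platform annotation (41091 probe sets with 1 symbol, 1801 with several, 11721 with none), and 41037 were matched to RefSeq of GRCh38.p14 for current names.

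Probe sets above the array's median on at least 3 of the 15 arrays were tested. Group means were fitted by limma 3.58.1 (R 4.3.3) over all 15 arrays, a procedure checked on simulated data. The pooled contrast is the mean of the CDP870 6 h and 24 h means minus the control mean. Tests were two-sided with Benjamini-Hochberg adjustment and a threshold of 0.05, and intervals are 95% moderated intervals. The number of arrays limits the precision. Single array values used exact permutation tests, whose smallest p is 0.0119.

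Named genes were the 10 smallest p in each direction (none passed), 3 in each direction between times, up to 10 calls in each direction between agents, up to 4 members by p of each list described, and a set always looked up. KRT7, KRT8, DSP, ELF3, CLDN7, CD74, COX2, PKM, SOD2 and TOP1 were added after their values were seen. In lists a gene stands by the tested probe set of highest mean. The members and lists were chosen with earlier results of these data known. Alternatives were other scaling, filters, weights, covariates, array sets and gene means, and leaving out each array. Figures were drawn with matplotlib 3.10.9.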

Additional observations from a re-analysis of the deposited data

Results flagged for a closer look

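Among the 47 probe sets of named or looked-up genes examined over the 6 CDP870 arrays, 2 held an array far from the other 5 by Dixon's test, and chance alone gives such a gap in about 1 of 20 groups. IL1B was 4.27 on CDP870 6 h replicate 16 and 3.74 to 3.88 on the other CDP870 arrays. ITGAM, an integrin subunit of myeloid cells, was 3.19 on CDP870 6 h replicate 15 and 3.36 to 3.44 on the others.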

How the results depend on the processing

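No paired analysis was possible because the groups share no replicate number. Leaving out each array in turn gave 0 to 0 calls for CDP870 pooled, at 6 h and at 24 h against control, 0 to 1 between the times (SMC3 without infliximab 24 h replicate 6) and 3557 to 5262 between the agents. The count of intervals within 1 then ran from 28557 to 28861, and within 0.5 from 21823 (without control replicate 4) to 26284. Array weights, which gave control replicate 3 a weight of 0.29, led to 1 call pooled (DGCR11, limma adjusted p = 0.0282), 11 at 6 h, 2 at 24 h and 280 between the times, among them MALAT1, UBN1 and THRAP3. With the spike-in level as covariate there was 1 call at 24 h. Without control replicate 3 and infliximab 24 h replicates 5 and 6 together there was 1 call between the times (SMC3), and without the filter also 1, while 54510 and 49623 intervals lay within 1 and 0.5 of the larger set. Array weights gave 5624 calls between the agents, 54.4% of them higher with infliximab, against 59% in the main fit. That share was 53.4% after renewed quantile normalization and 64.5% with each array centred on its median. On gene means, with fewer features, 2798 genes differed between the agents. For CDP870 pooled against control, unadjusted counts of higher and lower values were 527 and 755 after renewed quantile normalization. With array weights they were 1070 and 1613. The cause was not tested. Without control replicate 3 the medians of the cytokine, DNA replication and ribosome biogenesis lists were 0.10, -0.06 and -0.05.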

Other observations

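A set chosen after values were seen, the 133 tested probe sets annotated to small nucleolar RNA or SNHG symbols, had a median pooled difference of -0.02, equal to that of all tested probe sets. Of these, 13 were lower and 2 higher with CDP870 at an unadjusted p under 0.05, beside 3.47% lower and 1.22% higher over all tested probe sets. In TOP1, the DNA topoisomerase gene, the 6 h arrays measured 5.53, 5.49 and 5.27, the 24 h arrays 6.17 each and the controls 6.08, 7.02 and 6.26.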
